A study of Mus musculus with 14 samples.

Results

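Genes of the microRNA pathway, 10 of the 56421 listed in the count tables, were followed in the colon RNA of WT and miR-29ab1-/- mice. They were *Drosha*, *Dgcr8*, *Xpo5*, *Dicer1*, *Ago1*, *Ago2*, *Ago3*, *Ago4*, *Tnrc6a* and *Mov10*. The genes were chosen by name, and *Mov10* was selected on its values in the mice without DSS, where its counts were higher in miR-29ab1-/- mice with no overlap of the genotypes. The genotype difference of *Mov10* without DSS is therefore given as a description, with no test. RNA sequencing covered 14 C57BL/6N mice in 2 experiments, which were deposited as 2 tables. One had 4 WT and 4 miR-29ab1-/- mice without dextran sulfate sodium (DSS), a polymer that injures the colon epithelium when it is added to drinking water. The other had 3 WT and 3 miR-29ab1-/- mice after 3 days of 3.5% DSS. The miR-29ab1-/- mice carried a deletion of the *miR-29ab1* locus in all tissues. Per the study's methods, age- and sex-matched littermates aged 8 to 12 weeks were used unless noted otherwise.

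A microRNA is cut from its primary transcript in the nucleus by Drosha with its RNA-binding partner Dgcr8, carried to the cytoplasm by exportin 5 (*Xpo5*) and cut again by Dicer (*Dicer1*). The mature strand is held by an Argonaute protein (*Ago1* to *Ago4*), and Ago2 is able to cleave a fully paired target. The scaffold protein GW182 (*Tnrc6a*) joins Argonaute to the deadenylation and decapping machinery. Mov10 is an RNA helicase that binds 3′ UTRs, is found with Argonaute, and is also known for restricting viruses and retroelements.

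The mature strands of the miR-29 family are shown because the deletion removes 1 of the 2 loci that encode them. In RefSeq, on GRCm38.p6, miR-29a-3p lies in *Mir29a* (chr6:31062673-31062694, minus strand) and miR-29b-3p in *Mir29b-1* (chr6:31063025-31063047, minus strand), the locus that was deleted. The other locus, on chromosome 1, encodes the same miR-29b-3p strand in *Mir29b-2* (chr1:195037091-195037113, plus strand) and miR-29c-3p in *Mir29c* (chr1:195037600-195037621, plus strand). All of them share 1 seed, bases 2 to 8 of the strand, in capitals here.
miR-29a-3p: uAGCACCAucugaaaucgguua
miR-29b-3p: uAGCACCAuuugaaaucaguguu
miR-29c-3p: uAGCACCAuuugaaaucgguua
The hairpins themselves could not serve as a check of the genotype, because *Mir29a* was listed at 0 reads in all 14 mice and *Mir29b-1* at 0 to 1 read.

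Letters that pair with this seed were searched in the longest 3′ UTR of each gene in GENCODE vM21, on the sense strand. They were TGGTGCT for a 7mer-m8 site and TGGTGCTA for an 8mer site. Other site types, other transcripts and coding sequence were not searched. *Ago1*, *Ago3*, *Dicer1* and *Xpo5* held such letters. *Mov10*, with a 3′ UTR of 313 bases, held none, and neither did *Ago2*, *Ago4*, *Dgcr8*, *Drosha* or *Tnrc6a*. The matches are shown because they are stretches of these 3′ UTRs that could pair with the miR-29 seed, with the matching letters in capitals.
Ago1, chr4:126435561-126435589, minus strand: agaggctgggtTGGTGCTctccccttact
Ago3, chr4:126340047-126340075, minus strand: ttttttgaagaTGGTGCTgtagattttta
Ago3, chr4:126334729-126334758, minus strand: attcctttcggTGGTGCTAaagtagttgca
Dicer1, chr12:104690380-104690409, minus strand: cattttcccgtTGGTGCTAcgtttatgtat
Xpo5, chr17:46243357-46243385, plus strand: ctcctcctgccTGGTGCTtggggtctgca
Of 12774 genes tested without DSS that have a 3′ UTR there, 15.3% held at least 1 of these words and 3.15% an 8mer. The share rose with the length of the 3′ UTR. It was 14% in the length class of *Xpo5* (1327 bases), 26.1% in that of *Dicer1* (3851 bases), 42.1% in that of *Ago1* (4491 bases) and 54.1% in the longest class, which holds *Ago3* (12742 bases). *Ago2*, whose 3′ UTR has 11064 bases, was in the longest class without a match. A match is a description of letters and not a site shown to be used.

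Reads on genes totalled 14231157 to 18185020 per mouse without DSS, where every WT library was larger than every miR-29ab1-/- library, and 20076719 to 23153149 after DSS. The sample labels name small intestinal crypts and the study names colon. The summed level of 7 colon epithelium markers was 1840 to 5040 CPM (reads scaled to the library size) without DSS and 10200 to 14700 CPM after DSS, against 176 to 305 and 237 to 447 CPM for 9 small intestine markers (*Apoa4*, *Lct* and *Sis* among them), 1 of which was at 0 in the miR-29ab1-/- mice after DSS. The 6 general epithelium markers summed to 7650 to 10400 CPM without DSS and 12800 to 15800 CPM after DSS. The 9 smooth muscle and stroma markers summed to only 6.16 to 32.1 and 15.7 to 45.3 CPM. Whether crypts or the whole wall had been taken was not tested, and the levels are not to be read as those of whole colon. In bulk RNA, fewer cells of a type and less RNA per cell cannot be told apart.

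Levels of different genes were compared only as CPM per kilobase of gene length. In WT mice without DSS, *Ago2* stood at 10.1 ± 1.90 CPM per kb (SD, n = 4), *Drosha* at 8.83 ± 1.34, *Mov10* at 8.19 ± 1.13, *Tnrc6a* at 8.08 ± 1.26, *Ago1* at 7.42 ± 1.05 and *Xpo5* at 6.83 ± 0.311. Neighbours in that order differed by less than the larger of their SDs. *Dicer1* followed at 4.94 ± 0.342 CPM per kb, below the lowest *Xpo5* mouse, and *Ago3* and *Ago4* were lowest at 1.58 ± 0.287 and 1.43 ± 0.91, which overlapped. Of the Argonautes, Ago2 and Ago1 thus had the higher transcript levels in this tissue. In miR-29ab1-/- mice without DSS, *Mov10* had the highest mean of the 9 at 12.8 ± 1.20 CPM per kb, followed by *Ago2* at 10.5 ± 1.25.

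Without DSS, *Mov10* (chr3:104794836-104818563 on GRCm38, minus strand) stood at 51.8, 44.2, 50 and 37.8 CPM in the 4 WT mice. In the 4 miR-29ab1-/- mice it stood at 66.5, 69.7, 69.3 and 81.6 CPM. The lowest miR-29ab1-/- mouse was above the highest WT mouse. The gene was chosen by the same criterion on raw reads, at 983 to 1145 in miR-29ab1-/- and 678 to 940 in WT mice. The means were 45.9 ± 6.33 CPM in WT and 71.8 ± 6.71 CPM in miR-29ab1-/- mice (SD, n = 4 each), a log2 fold change of 0.64 (standard error 0.11). Of 15441 genes tested, 1.11% were higher in miR-29ab1-/- mice without overlap in CPM. In CPM, *Dicer1* came near to such a separation, at 82.5, 82.5, 90 and 75.9 CPM in WT and 84.9, 91.7, 88.4 and 91.8 CPM in miR-29ab1-/- mice. One WT mouse lay inside the miR-29ab1-/- range and the other 3 were below it. In raw reads the *Dicer1* groups overlapped, at 1363 to 1621 in WT and 1255 to 1505 in miR-29ab1-/- mice.

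The other 8 members with reads differed little between genotypes without DSS, with log2 fold changes from -0.06 to 0.13 and overlapping groups in each case. At the entrance of the pathway, *Drosha* was at 49.6, 64.2, 47.3 and 48.4 CPM in WT and at 41.4, 44.4, 61.6 and 54.0 CPM in miR-29ab1-/- mice (log2 fold change -0.06, standard error 0.14). *Xpo5* stayed close in all mice, at 45.6, 50, 45.6 and 46.1 CPM in WT and 43.1, 48.7, 50.8 and 41.9 CPM in miR-29ab1-/- mice (-0.02, 0.09). The log2 fold change of *Dicer1* was 0.11 (0.08). Among the Argonautes, *Ago1* was at 60.3 ± 8.53 CPM in WT and 60.9 ± 4.10 CPM in miR-29ab1-/- mice, and *Ago2* at 141 ± 26.6 and 148 ± 17.5 CPM (SD, n = 4 each). *Ago3* was at 26.1 ± 4.76 and 28.1 ± 4.17 CPM, and *Tnrc6a* at 103 ± 16 and 108 ± 17.1 CPM. The log2 fold changes of these 4 genes were 0.02 (standard error 0.11), 0.07 (0.15), 0.11 (0.15) and 0.07 (0.14). *Ago4* was the least even, at 19.0, 4.41, 9.05 and 7.41 CPM in WT and 13.7, 9.32, 7.11 and 13.7 CPM in miR-29ab1-/- mice. Its 0.13 (0.42) became 0.66 (0.30) without WT mouse 1 and -0.11 (0.36) without WT mouse 2. The members with miR-29 seed matches (*Ago1*, *Ago3*, *Dicer1* and *Xpo5*) lay between -0.02 and 0.11.

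At an unadjusted p under 0.05, the cutoff used in the study, 1 of the 9 members with reads (*Mov10*) was past the threshold, beside 3.67% of the 15441 genes. With Benjamini-Hochberg adjustment edgeR called 0 of the 9, beside 0.0194% of all genes, and DESeq2 called 1. These counts are no test and nothing is read from them, because *Mov10* was chosen on its values in this contrast.

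**Figure D1:**
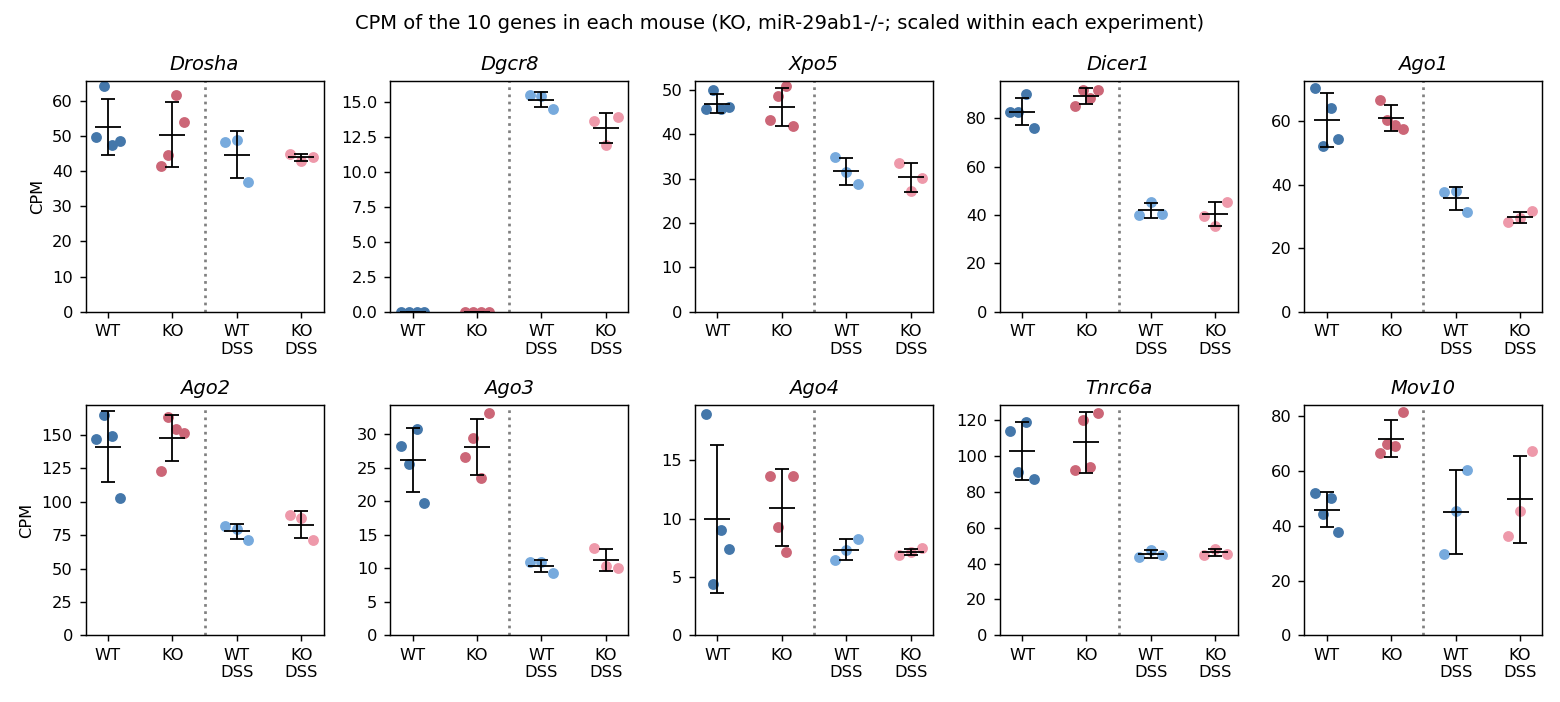
CPM of each of the 10 genes (vertical axes, from 0) in each mouse of the 4 groups (KO, miR-29ab1-/-), with the mean (wide tick) and SD (bars); the dotted line parts the 2 experiments, each scaled on its own. *Mov10* separates the genotypes on the left of its panel and not on the right, and *Dgcr8* is listed at 0 in the 8 mice without DSS.

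*Dgcr8* (chr16:18253948-18289246 on GRCm38, minus strand) was listed at 0 reads in all 8 mice without DSS and had 225 to 370 reads in each mouse after DSS. Of the protein-coding genes around it, *Dgcr6*, *Prodh*, *Rtn4r*, *Zdhhc8*, *Ranbp1* and *Trmt2a* were also listed at 0 in all 8 mice and had reads after DSS, and *Tango2* had 1 read in the 8 mice against 511 to 682 per mouse after DSS. Through the whole tables, 25 genes were at 0 in every mouse without DSS and at 100 reads or more in every mouse after DSS. The table without DSS lists 114 genes on patch or alternate scaffolds and the DSS table lists 0. The part of this difference between the tables in the zeros was not tested. *Dgcr8* was kept out of every comparison across the tables for this reason, and only its values after DSS are used.

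The rule that selected *Mov10* used no values of the mice after DSS, and the genotype difference was tested there, although earlier results of both tables were known when the genes were chosen. *Mov10* stood at 29.6, 45.3 and 60.2 CPM in the 3 WT mice and at 36.4, 45.3 and 67.2 CPM in the 3 miR-29ab1-/- mice. The groups overlapped almost fully, and both spread about 2-fold from the lowest to the highest mouse. The fold change on the log2 scale was 0.14 (standard error 0.32, unadjusted p = 0.67, adjusted p = 0.93, edgeR quasi-likelihood test). It ranged from -0.14 without miR-29ab1-/- mouse 3 to 0.41 without WT mouse 3, and was -0.09 without WT mouse 1. Set against the value without DSS in 1 model of all 14 mice, the genotype difference of *Mov10* was 0.50 lower on the log2 scale after DSS (a difference of -0.50, standard error 0.31); no test is given, since it holds the contrast used for the choice. Without 1 mouse this difference ranged from -0.78 to -0.23. It was -0.73 without WT mouse 1, -0.23 without WT mouse 3, -0.32 without miR-29ab1-/- mouse 1 and -0.78 without miR-29ab1-/- mouse 3, all after DSS.

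Among the other members after DSS, *Ago1* (chr4:126435012-126468583, minus strand) was at 37.6, 38 and 31.5 CPM in WT and at 28.1, 29.4 and 31.6 CPM in miR-29ab1-/- mice. The lowest WT mouse lay within the miR-29ab1-/- range. This was a log2 fold change of -0.27 with a standard error of 0.11 (unadjusted p = 0.041, adjusted p = 0.66, edgeR). *Dgcr8* was at 15.5, 15.4 and 14.5 CPM in WT and at 13.6, 11.9 and 13.9 CPM in miR-29ab1-/- mice, and here the groups did not overlap. The difference was -0.20 on the log2 scale (standard error 0.13, unadjusted p = 0.15, adjusted p = 0.72, edgeR), and 6.28% of the 14908 genes tested were lower in miR-29ab1-/- mice without overlap. *Dgcr8* overlaps *Trmt2a* (chr16:18248679-18254772) in position, and how reads there were counted is not given in the sources used here. The remaining 7 members, apart from *Mov10*, had log2 fold changes from -0.06 (*Xpo5* and *Dicer1*) to 0.11 (*Ago3*).

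In all, 1 of the 10 members passed an unadjusted p under 0.05 after DSS (*Ago1*, lower), beside 7.23% of all genes tested. With adjustment edgeR called 0 of the 10, beside 0.0134% of all genes, and DESeq2 called 0 as well. The call of *Ago1* was lost in DESeq2 (unadjusted p = 0.072) and in edgeR when WT mouse 1, WT mouse 2, miR-29ab1-/- mouse 1 or miR-29ab1-/- mouse 2 was left out (unadjusted p = 0.093 to 0.12, edgeR quasi-likelihood test). The number of all genes past the unadjusted threshold moved from 1078 to 592, 483 and 2530 when miR-29ab1-/- mouse 1, 2 or 3 was left out.

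**Figure D2:**
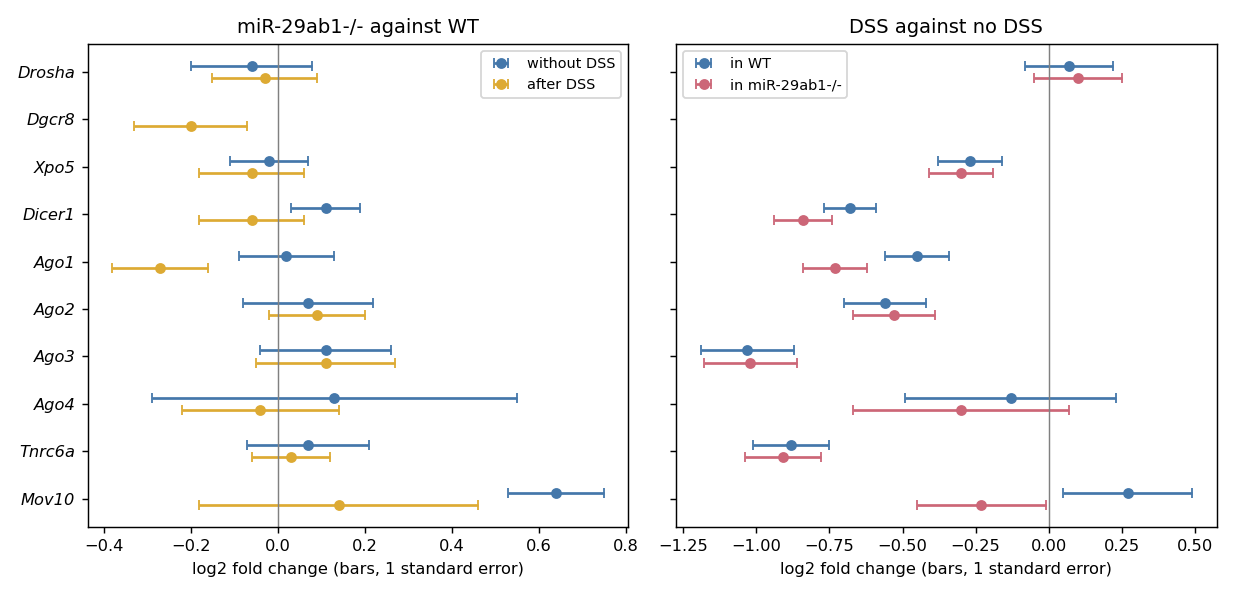
Log2 fold changes of the 10 genes with bars of 1 standard error, for miR-29ab1-/- against WT (left, 4 against 4 mice without DSS and 3 against 3 after DSS) and for DSS against no DSS (right, within each genotype; *Dgcr8* not compared). On the left *Mov10* without DSS, on which it was chosen, stands apart at 0.64, and on the right *Dicer1*, *Ago1*, *Ago2*, *Ago3* and *Tnrc6a* lie below 0 in both genotypes.

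Mice after DSS were also compared with mice without DSS of the same genotype, in 1 edgeR model with all 14 mice scaled together and 16196 genes. The DSS mice and the mice without DSS came from different tables, so that DSS and the experiment cannot be told apart. *Dicer1*, *Ago1*, *Ago2*, *Ago3* and *Tnrc6a* were lower after DSS at an adjusted p under 0.05 in WT, 5 of 9 members, and the same 5 genes with *Xpo5* did in miR-29ab1-/- mice, 6 of 9. Over all genes tested, 17.9% were called lower in WT and 22.6% in miR-29ab1-/- mice. No member was called higher, beside 20.0% and 23.0% of all genes. The median log2 fold change of the 9 members was -0.45 in WT and -0.53 in miR-29ab1-/- mice, against -0.02 and -0.03 over all genes.

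*Ago3* (chr4:126331704-126429556, minus strand) showed the largest decrease of the 9. On the common scale it stood at 25.4, 23.7, 27.9 and 18.4 CPM in WT mice without DSS and at 12.3, 12.2 and 10.5 CPM after DSS. In miR-29ab1-/- mice it was at 24.4, 27.1, 21.4 and 30.1 CPM without DSS and at 14.9, 11.7 and 11.4 CPM after DSS. The groups were apart in both genotypes, with log2 fold changes of -1.03 (standard error 0.16, adjusted p = 0.00021) in WT and -1.02 (0.16, adjusted p = 0.00013) in miR-29ab1-/- mice, by edgeR.

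*Tnrc6a* (chr7:123123885-123195296, plus strand), the scaffold that Argonautes bind, was at 102, 84.0, 108 and 81.6 CPM in WT mice without DSS and at 49.3, 53.7 and 50.5 CPM after DSS. In miR-29ab1-/- mice it was at 84.1, 111, 86.0 and 112 CPM without DSS and at 50.8, 54.5 and 51.5 CPM after DSS. The 6 mice after DSS were almost level and all below the 8 without DSS. The log2 fold changes were -0.88 (standard error 0.13, adjusted p = 0.00013) in WT and -0.91 (0.13, adjusted p = 5.4e-05) in miR-29ab1-/- mice, by edgeR.

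*Dicer1* (chr12:104687742-104751952, minus strand) was at 74.1, 76.4, 81.5 and 71.0 CPM in WT mice without DSS and at 45.3, 51.3 and 45.4 CPM after DSS. In miR-29ab1-/- mice it was at 77.8, 84.6, 81.0 and 83.2 CPM without DSS and at 44.9, 40.2 and 51.4 CPM after DSS. These groups too did not overlap in either genotype. The log2 fold changes were -0.68 (standard error 0.09, adjusted p = 9.3e-05) in WT and -0.84 (0.10, adjusted p = 9.7e-06) in miR-29ab1-/- mice, by edgeR.

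*Ago2* (chr15:73095844-73184935, minus strand), the Argonaute that cleaves, fell from 129 ± 23.7 CPM (SD, n = 4) to 87.6 ± 6.70 CPM (n = 3) in WT and from 135 ± 16.3 to 93.7 ± 11.6 CPM in miR-29ab1-/- mice. The log2 fold changes were -0.56 (standard error 0.14, adjusted p = 0.0073) and -0.53 (0.14, adjusted p = 0.0076), by edgeR. *Ago1* fell from 55.1 ± 6.83 to 40.3 ± 4.16 CPM in WT and from 55.8 ± 3.93 to 33.6 ± 2.02 CPM in miR-29ab1-/- mice. The changes were -0.45 (0.11, adjusted p = 0.0049) and -0.73 (0.11, adjusted p = 0.00011), by edgeR, and the difference between genotypes of -0.28 (0.15) is given with no test. *Ago2* overlaps *Chrac1* on the other strand, and the use of strand in counting is not given in the sources used here.

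*Xpo5*, the export receptor, had smaller differences. The fold change on the log2 scale was -0.27 (standard error 0.11, adjusted p = 0.062) in WT and -0.30 (0.11, adjusted p = 0.032) in miR-29ab1-/- mice, by edgeR. The call in miR-29ab1-/- mice was lost without mouse 2 or 3 of that genotype before DSS, without mouse 2 or 3 of it after DSS, or without WT mouse 2 after DSS (adjusted p = 0.056 to 0.19), and the one in WT was gained without WT mouse 1 after DSS (adjusted p = 0.047). *Drosha* (0.07 and 0.10 in WT and miR-29ab1-/- mice), *Ago4* (-0.13 and -0.30) and *Mov10* did not pass the test in either genotype. *Mov10* was at 42.0 ± 5.07 CPM without DSS and 50.7 ± 17.2 CPM after DSS in WT (log2 fold change 0.27, standard error 0.22, adjusted p = 0.35), and at 65.7 ± 5.69 and 56.1 ± 17.9 CPM in miR-29ab1-/- mice (-0.23, 0.22, adjusted p = 0.43), by edgeR. In WT the *Mov10* value was 0.51 without WT mouse 1 after DSS (adjusted p = 0.066, edgeR) and 0.01 without WT mouse 3 after DSS. In miR-29ab1-/- mice it was -0.04 without mouse 1, -0.14 without mouse 2 and -0.50 without mouse 3 of that genotype after DSS (adjusted p = 0.075 for the last, edgeR). Scaled by library size alone, the median of all genes shifted to -0.26 in WT and -0.39 in miR-29ab1-/- mice. The values of *Mov10* were then 0.03 and -0.58, the 5 genes named above stayed lower in both genotypes, and *Xpo5* passed in WT (-0.50, adjusted p = 0.0055, edgeR).

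The members called lower in both genotypes were long genes, and over all genes the difference after DSS moved with gene length. Genes under 2 kb had a median log2 fold change of 0.08 in WT and 0.12 in miR-29ab1-/- mice, with 14.5% and 16.2% called lower. The 1308 genes from 10 kb, which include *Dicer1* (16.8 kb), *Ago3* (16.6 kb), *Ago2* (14 kb) and *Tnrc6a* (12.7 kb), had medians of -0.28 and -0.32, with 38.3% and 44.8% called lower. Within that class, 10.5% of genes in WT were as low as *Ago3* or lower, 14.8% as low as *Tnrc6a*, 22.9% as low as *Dicer1* and 28.4% as low as *Ago2*. The shares in miR-29ab1-/- mice were 13.7%, 17.0%, 19.3% and 35.6%. *Ago1* lay in the class of 8 to 10 kb, where 27.3% and 35.3% were called lower. *Xpo5* (6.86 kb), called lower only in miR-29ab1-/- mice, lay in the class of 6 to 8 kb, where 20.8% and 29% were called lower. The part of gene length in these differences was not tested.

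**Figure D3:**
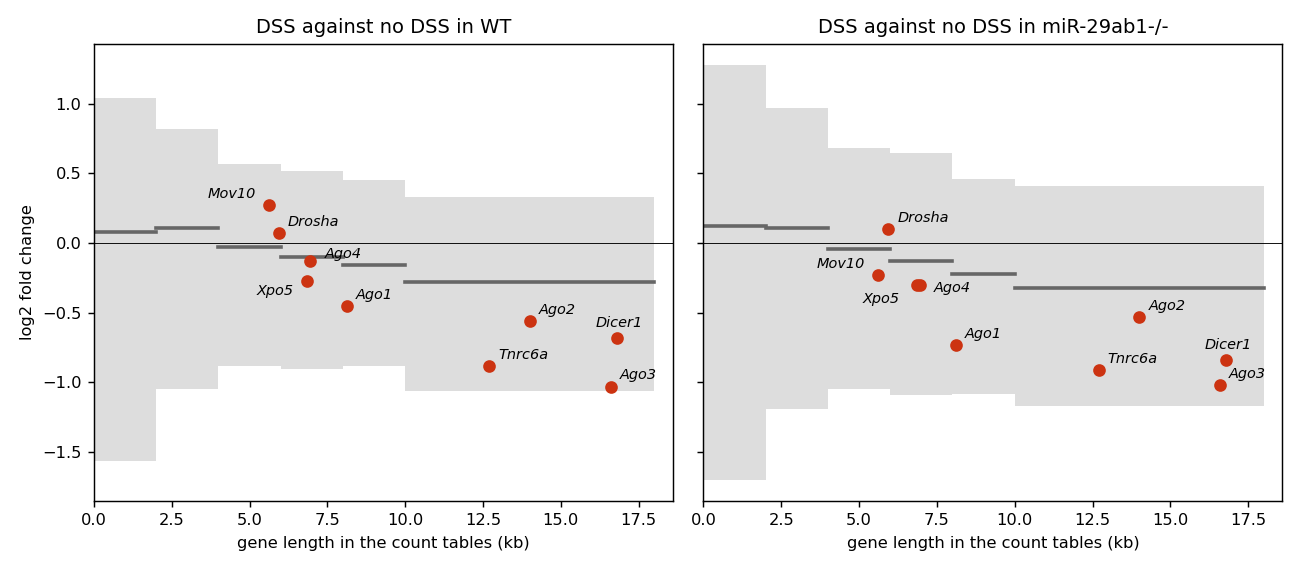
Log2 fold change of DSS against no DSS (vertical axis) against gene length in kb (horizontal axis) for 9 members (red points), over all genes tested in 6 length classes (dark line, median; grey area, 10th to 90th percentile; the last class holds every gene from 10 kb). The members called lower in both genotypes are the 5 from 8 kb upwards, and all points lie within the grey areas.

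Cell type markers differed after DSS as well. Their sums are CPM scaled within each experiment, so that sums with and without DSS are not on a common scale. Summed levels of 8 macrophage and neutrophil markers were 18.9 to 41.9 CPM without DSS and 57 to 268 CPM after DSS, and those of 6 general epithelium markers 7650 to 10400 and 12800 to 15800 CPM. Summed mast cell markers (6 genes) went from 136 to 249 CPM without DSS to 34.5 to 65.2 CPM after DSS. In WT this did not hold gene by gene with all mice scaled together, since 3 of the 4 tested were above 0 and 1 below (median log2 fold change 0.23). All 4 were below 0 in miR-29ab1-/- mice (median -1.87). For DSS against no DSS, 1 was called lower in WT and 2 in miR-29ab1-/- mice, beside 17.9% and 22.6% of all genes. The 10 T cell markers summed to 39.3 to 201 and 43.4 to 150 CPM. The 6 B and plasma cell markers were at 3.68 to 35.7 and 2.46 to 12.5 CPM, and the 9 smooth muscle and stroma markers at 6.16 to 32.1 and 15.7 to 45.3 CPM. None of these lists was wholly at 0 in any group. Between genotypes the sums of every marker list overlapped without DSS, and after DSS all but those of the mast cell list did. Without DSS 1 of 4 mast cell markers tested passed an unadjusted p (higher in miR-29ab1-/- mice) and 0 of the other lists did, beside 3.67% of all genes. After DSS all 10 T cell markers were above 0 (median log2 fold change 0.58, 2 passed), as were all 8 macrophage and neutrophil markers (median 0.70, 1 passed). The 4 mast cell markers tested were all below 0 (median -1.41, 3 passed), and 1 of 4 smooth muscle and stroma markers passed (higher). Over all genes tested after DSS, 7.23% passed an unadjusted p. The markers of a list were measured in the same mice and are not independent observations. None of these calls between genotypes passed an adjusted p in edgeR. The part of the cell makeup in the values of the members was not tested.

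Other genes of the same steps were taken from lists chosen with earlier results of these data known. Of 21 further processing genes tested, such as partners of Dicer and terminal uridylyltransferases, 0 passed an unadjusted p under 0.05 between genotypes in edgeR, without DSS (median log2 fold change -0.05, all genes 0) and after DSS (-0.02, all genes -0.01). For DSS against no DSS, 2 of the 21 were called higher and 3 lower in each genotype, beside 20.0% of all genes called higher and 17.9% lower in WT, and 23.0% and 22.6% in miR-29ab1-/- mice. Of 41 further silencing effectors tested, which include the deadenylase, decapping and decay factors, at an unadjusted p 2 rose and 0 fell in miR-29ab1-/- mice without DSS, and 3 rose and 0 fell after DSS. The shares over all genes, in both directions, were 3.67% and 7.23%, so that these counts were near the background.

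*Dcp2*, the catalytic subunit of the decapping complex, was at 80.3 ± 10.2 CPM in WT and 107 ± 10.1 CPM in miR-29ab1-/- mice (SD, n = 4; log2 fold change 0.41, standard error 0.11, unadjusted p = 0.0036, adjusted p = 1, edgeR). *Dcp1b*, a decapping cofactor, was the other one without DSS, at 22.6 ± 1.70 and 28.6 ± 2.90 CPM (0.34, standard error 0.11, unadjusted p = 0.0096, adjusted p = 1, edgeR). After DSS *Dcp2* was again higher, at 54.6 ± 10.3 CPM in WT and 71.0 ± 3.33 CPM in miR-29ab1-/- mice (SD, n = 3; 0.38, standard error 0.14, unadjusted p = 0.023, adjusted p = 0.65, edgeR). The other two were *Pnrc1*, a decapping coactivator (0.37, standard error 0.10, unadjusted p = 0.005), and *Zc3h12a*, an endonuclease of inflammatory mRNAs (0.71, standard error 0.24, unadjusted p = 0.022), both with an adjusted p of 0.65 in edgeR. None of these calls passed the adjusted threshold.

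For DSS against no DSS, 6 of the 41 effectors were called higher and 9 lower in WT, and 6 higher and 15 lower in miR-29ab1-/- mice, with medians of 0 and -0.09. All genes had 20.0% called higher and 17.9% lower in WT, and 23.0% and 22.6% in miR-29ab1-/- mice. Of 17 helicases related to Mov10 or of RNA decay, 0 passed an unadjusted p between genotypes in edgeR in either experiment, 5 were called lower after DSS in WT (17.9% of all genes) and 4 in miR-29ab1-/- mice (22.6% of all genes), and 0 higher. Of 7 genes of the Piwi branch, which acts in the germline, 2 had enough reads for the genotype tests and 0 of them passed in edgeR. In the 14-mouse model 3 were tested, and 1 was called lower in each genotype.

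*Mov10* was set against a list of 38 interferon-stimulated genes that does not hold it. Without DSS all 38 had a log2 fold change above 0 in miR-29ab1-/- mice (median 0.59, all genes 0), and 5 passed an unadjusted p (3.67% of all genes) and 0 an adjusted p in edgeR. The 38 genes were measured in the same mice and are not independent observations. Their mean log2 CPM, scaled over both experiments, was 4.511, 5.227, 5.273 and 5.164 in WT. It was 4.633, 5.528, 5.685 and 6.319 in miR-29ab1-/- mice, so that the genotypes overlapped. *Rsad2*, an antiviral enzyme, was at 9.07 ± 2.71 CPM in WT and 19.0 ± 4.77 CPM in miR-29ab1-/- mice (SD, n = 4; 1.07, standard error 0.25, unadjusted p = 0.0014, adjusted p = 0.82, edgeR). After DSS 2 of the 38 were above 0 and 36 below (median -0.24, all genes -0.01), and 0 passed an unadjusted p in edgeR. For DSS against no DSS, 14 of the 38 were called higher in WT (median 1.14), beside 20.0% of all genes. In miR-29ab1-/- mice 2 of the 38 were called higher (median 0.43), beside 23.0% of all genes. The *Mov10* values in the same 4 comparisons were 0.64, 0.14, 0.27 and -0.23.

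Across mice, with the mean of each group removed so that the genotype contrast did not enter, *Mov10* and the mean of the list had a Pearson's r of 0.63 (permutation p = 0.13) and a Spearman's rho of 0.67 (permutation p = 0.044) over 14 mice. Pearson's r did not pass the threshold. Both permutation tests were two-sided, within groups, with 100000 resamples. In the 8 mice without DSS r was 0.26 (exact permutation p = 0.49) and rho 0.43 (exact permutation p = 0.34). In the 6 mice after DSS r was 0.75 (exact permutation p = 0.19) and rho 0.89 (exact permutation p = 0.083), where the smallest p the design allows is 0.028. Without the 2 mice farthest from the median of the list mean, WT mouse 3 and miR-29ab1-/- mouse 3 after DSS, r was 0.40 (permutation p = 0.56). Without the 2 mice farthest from it once group means were removed, WT mouse 1 after DSS and miR-29ab1-/- mouse 1 without DSS, r was 0.32 (permutation p = 0.62). This second choice of mice was made after seeing the data. The relation rests on these few mice. Of the 7 values of r computed, including another prior count and another floor for the list, the lowest Benjamini-Hochberg adjusted p was 0.30 (permutation).

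**Figure D4:**
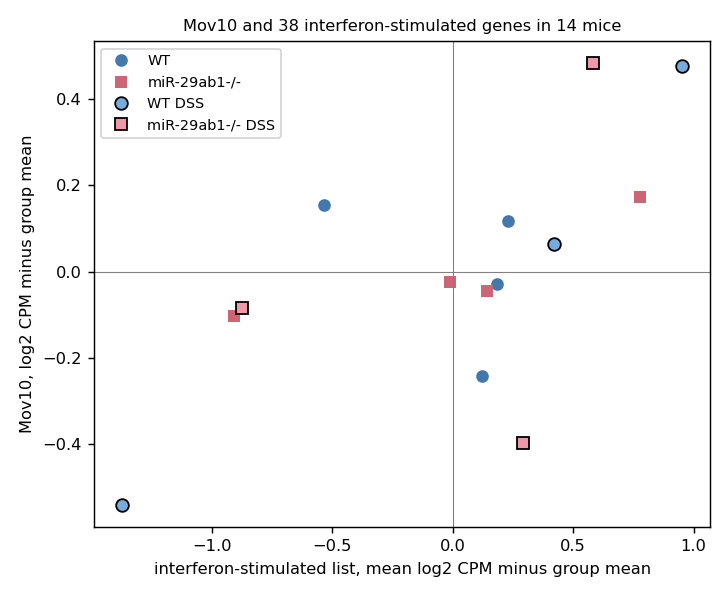
*Mov10* log2 CPM minus its group mean (vertical axis) against the mean log2 CPM of 38 interferon-stimulated genes minus its group mean (horizontal axis), 1 point per mouse, 14 mice in 4 groups. The lowest point on both axes is WT mouse 1 after DSS (-0.541 and -1.373), and the points at the upper right include WT mouse 3 (0.476 and 0.954) and miR-29ab1-/- mouse 3 (0.483 and 0.583) after DSS.

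On the same scale, the 5 genes most like *Mov10* among 16195 were *Gm33091*, a long noncoding RNA (r = 0.914 over 14 mice), *Fubp3* (0.907), which encodes a single-stranded nucleic acid binding protein, *Cux2* (0.906), a homeodomain factor, *Pcif1* (0.893), a cap-adjacent adenosine methyltransferase, and *Slc6a6* (0.891), the taurine transporter. These are the extremes of many genes over few mice that share libraries and depth, and are given as a description. The list of interferon-stimulated genes had values from 0.384 (*Samd9l*) to 0.758 (*Cmpk2*), with a median of 0.61 against -0.01 for all genes, and 28 of the 38 were in the top 5%. These values restate gene by gene the relation to the list mean given above, in the same mice. They are not independent of one another and add no support to it. Of the other 8 members compared, *Dicer1* was the most like *Mov10* at 0.465, followed by *Tnrc6a* at 0.329 and *Ago4* at 0.307. *Ago1* was at -0.004, *Ago3* at -0.112, *Ago2* at -0.196 and *Drosha* at -0.266, and *Xpo5* was the least like it at -0.561.

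In the promoters of RefSeq on GRCm38.p6, from 250 bases before to 50 after the start, the core of the interferon response element, GAAANNGAA, was searched on both strands. The letters of the gamma-activated site, TTCNNNGAA, were searched in the same way. The former was in 8.56% and the latter in 8.30% of 32851 promoters. All 9 members with an entry, *Mov10* with a pair of starts among them, held neither.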

How the data were processed

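Total RNA, from mouse colon according to the study, was extracted with TRIzol and made into libraries with a directional kit, per the labels. The deposited tables hold raw read counts per gene, which the authors made after alignment; the submitters' processing notes name HISAT2 and DESeq2, without versions. The genome build and the counter are not given in the sources used here, and the gene coordinates match GENCODE vM21 on GRCm38. FPKM in 14 columns, 4 columns of group means, and the authors' own fold changes and p-values were not used.

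Groups were taken from the sample titles. The study states that a WT sample and a miR-29ab1-/- sample were left out of its analysis. It names neither them nor their experiment. The columns of the DSS table carry no numbers from the titles, so that mice after DSS are numbered as in that table. Nothing states whether libraries were prepared together, and p-values measure the spread between these mice.

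Counts were tested with the quasi-likelihood test of edgeR 4.0.16 (R 4.3.3), with TMM scaling and filterByExpr (minimum count 10, minimum total 15), separately in each table. DSS was compared with no DSS in 1 model of 14 mice over genes found in both tables by identifier, without loci numbered within a table. Genotype differences were called at an unadjusted p under 0.05, as in the study, and at a Benjamini-Hochberg adjusted p under 0.05, and DSS differences at the latter. CPM is scaled by TMM within each table, or over both tables where stated, and 3 reads correspond to 0.130 to 0.211 CPM. Log2 CPM used a prior count of 2. No pair of mice in a group agreed within sampling noise. Scripts were tested on simulated data. Alternatives were DESeq2 1.42.0, other scalings and filters, all mice in 1 model, a replicate block, and leaving out each mouse.

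The members and gene lists were chosen with earlier results of these data known. All members are named in every comparison. From each pathway list, genes were named that passed an unadjusted p under 0.05 between genotypes without overlap of the groups, at most 6 per list and comparison, and marker lists are given as counts and ranges. The 5 genes most like *Mov10* were those with the highest Pearson's r over 14 mice.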

Additional observations from a re-analysis of the deposited data

Results flagged for a closer look

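Each gene in each group of 4 mice was checked for a mouse far from the others. In 2 of these 18 sets of values, 1 mouse stood far from the other 3 (a gap to the nearest mouse that took most of the range of the group, past Dixon's critical value). Chance would give about 1 in 20 such sets if they were independent, but they come from the same 8 mice. *Drosha* was at 64.2 CPM in WT mouse 2 without DSS, with the nearest mouse at 49.6 CPM (0.864 of the range). *Xpo5* was at 50 CPM in the same mouse, with the nearest at 46.1 CPM (0.886 of the range).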

How the results depend on the processing

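Without DSS, 566 genes passed an unadjusted p and 3 an adjusted p in edgeR, and after DSS 1078 and 2. With no filter on low counts these counts were 1099 and 11, and 1819 and 46. DESeq2 called 27 and 66 genes at an adjusted p, and with at least 10 reads in every mouse edgeR called 0 in either experiment. Leaving out 1 mouse gave 479 to 692 and 3 to 5 genes without DSS, and 483 to 2530 and 0 to 93 after DSS. Of the members, 1 passed an adjusted p without DSS in DESeq2 and with no filter, where edgeR called 0, which is no test since *Mov10* was chosen on this contrast. After DSS the 1 member at an unadjusted p became 0 in DESeq2 and 0 to 1 when 1 mouse was left out. *Xpo5* in miR-29ab1-/- mice lost its DSS call with no filter (adjusted p = 0.058, edgeR), and in WT gained it with at least 10 reads in every mouse (adjusted p = 0.022). The cause of these changes was not tested. *Mov10* without DSS ranged from 0.56 to 0.71 on the log2 scale when 1 mouse was left out. With the replicate number as a block, 543 genes and 1 member passed an unadjusted p and 3 genes an adjusted p, and *Mov10* was at 0.65 (standard error 0.13). Same-numbered mice correlated at -0.03, 0.149, -0.194 and -0.127, and 1 of the 4 pairs matched best with its own number. Mice with different numbers correlated at -0.277 to 0.262. So few pairs cannot show whether same-numbered mice were paired. No paired analysis was possible after DSS because the columns of that table carry no replicate numbers from the labels. The Mov10 reads (678 to 1613 per mouse) limit the precision less than the spread between mice, whereas *Ago4* had as few as 74 reads.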
